A study of Homo sapiens with 4 samples.

Results

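The response of PC3 cells to atorvastatin (ATO) was described across gene functions. PC3 is an established line of human prostate cancer. Cells in RPMI medium with 10% FBS were exposed to ATO at 10 µM for 24 h from about 30% confluence, and the control was PC3 cells that the labels call untreated, with no vehicle named. Each condition was measured on 1 Agilent array of 1 colour, so the spread between cultures was not measured and no p-value was computed. Genes were taken where the brightest probe was well above background on both PC3 arrays, which held for 12548 of 27274 gene names. All 12 genes fixed as PC3 markers were well above background on both arrays, each higher than in untreated LNCaP cells, the other line of the series. Of 14 luminal prostate markers, 6 were well above background, and KLK2, KLK3 and FOLH1 were among those that were not. Of 12 markers of blood, endothelial and fibroblast cells, 4 were well above background in the control and 3 after ATO, at summed signals of 1430 and 1920 units, which came mainly from CD68, a lysosomal protein of macrophages.

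Statins block the synthesis of mevalonate. Mevalonate feeds the sterols, and also the isoprenoids that anchor small GTPases such as Ras in membranes, the dolichol used to glycosylate proteins in the endoplasmic reticulum (ER), and the tail of coenzyme Q. When sterol in the ER is low, the factor SREBP-2 enters the nucleus and raises the genes of sterol synthesis. The co-activators YAP and TAZ and the factor SRF answer to the state of the actin cytoskeleton.

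Signals are given in the scanner's units for control and ATO. Each fold is taken after dividing by the 75th percentile of the array's probes, 588.2 units in control and 568.9 in ATO, so it is 1.03 times the quotient of the printed signals for a gene that rose and that much smaller for a gene that fell. A gene is said to have risen or fallen where this ratio was at least 1.5-fold (log2 ratio of 0.585 or more in size). By this measure 928 of the 12548 genes were higher after ATO (7.4%) and 920 were lower (7.33%), and the median log2 ratio was 0.01. At 2-fold they were 234 (1.86%) and 213 (1.7%). The shares at 1.5-fold are the background for each gene list. Calls split into 50.2% higher and the rest lower with this scaling, but with the 50th percentile 78.8% of the calls were higher and with the spike-in probes 34.7%, and the former moved every log2 ratio up by 0.195. With the 50th percentile 14.9% of all genes were higher and 3.99% lower, and with the spike-in probes 5.23% and 9.86%. A count given below under either scaling is to be read against these shares.

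The only error that could be measured was technical. Among 649 probes printed in 10 copies, the SD of the log2 ratio of a single copy was 0.138, or 1.1-fold. A second probe of the same gene was a harder check. Of 304 called genes with another measured probe, 282 (92.8%) had the same direction on that probe and 174 (57.2%) were past 1.5-fold on it. The share of genes called was 16.1% among spots in the lower rows of the array and 13.4% among those in the upper rows. Calls were made for 17.1% of the 2766 genes whose spot lay in a bright local background and 14.1% of the others, where bright means over 3 scaled median absolute deviations above the median local background of the array, on either PC3 array. Such spots were 8.35% of the gene spots in control and 15.3% in ATO. Of the genes said below to have risen or fallen, those on such spots were ACOX3, AKR1C3, ANKRD37, CLDN11, CLIC3, CXCL2, DKK1, ELF3, FGFR4, HMGCS1, IPO7, ISG20, JUN, KLF13, KRT4, LIMS1, LYAR, MMP28, MVD, NDUFA5, NOLC1, OASL, PPAT, SEC24A, SMO, SREBF2, TFPI, TGFB2, TMEM97, WIPI1 and ZYX. A second probe kept the direction but was under 1.5-fold for DHDDS, FANCA, LAMB2, LFNG, LPIN1, PSMD2, TAGLN and VEGFA. Without the genes in a bright local background, 7.31% of all genes were higher and 6.75% lower. In the upper rows alone the shares were 7.36% and 6.06%, and with another background correction (normexp) 5.38% and 5.41%. Counts given below under these settings are to be read against these shares. The part of position in the results was not tested.

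Across 61 lists of gene functions, the PC3 response was uneven. The lists with the largest shares of higher genes were the targets of the stress factors ATF4 and CHOP (53.6%), the CDK inhibitors (50%) and cholesterol synthesis (43.5%). The largest shares of lower genes were in the YAP and TEAD targets (72.2%), DNA replication (60%) and the G1 and S phase regulators (37.8%). At the other end, none of 75 cytosolic ribosomal proteins and none of 76 mitochondrial ones passed 1.5-fold in either direction.

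**Figure D1:**
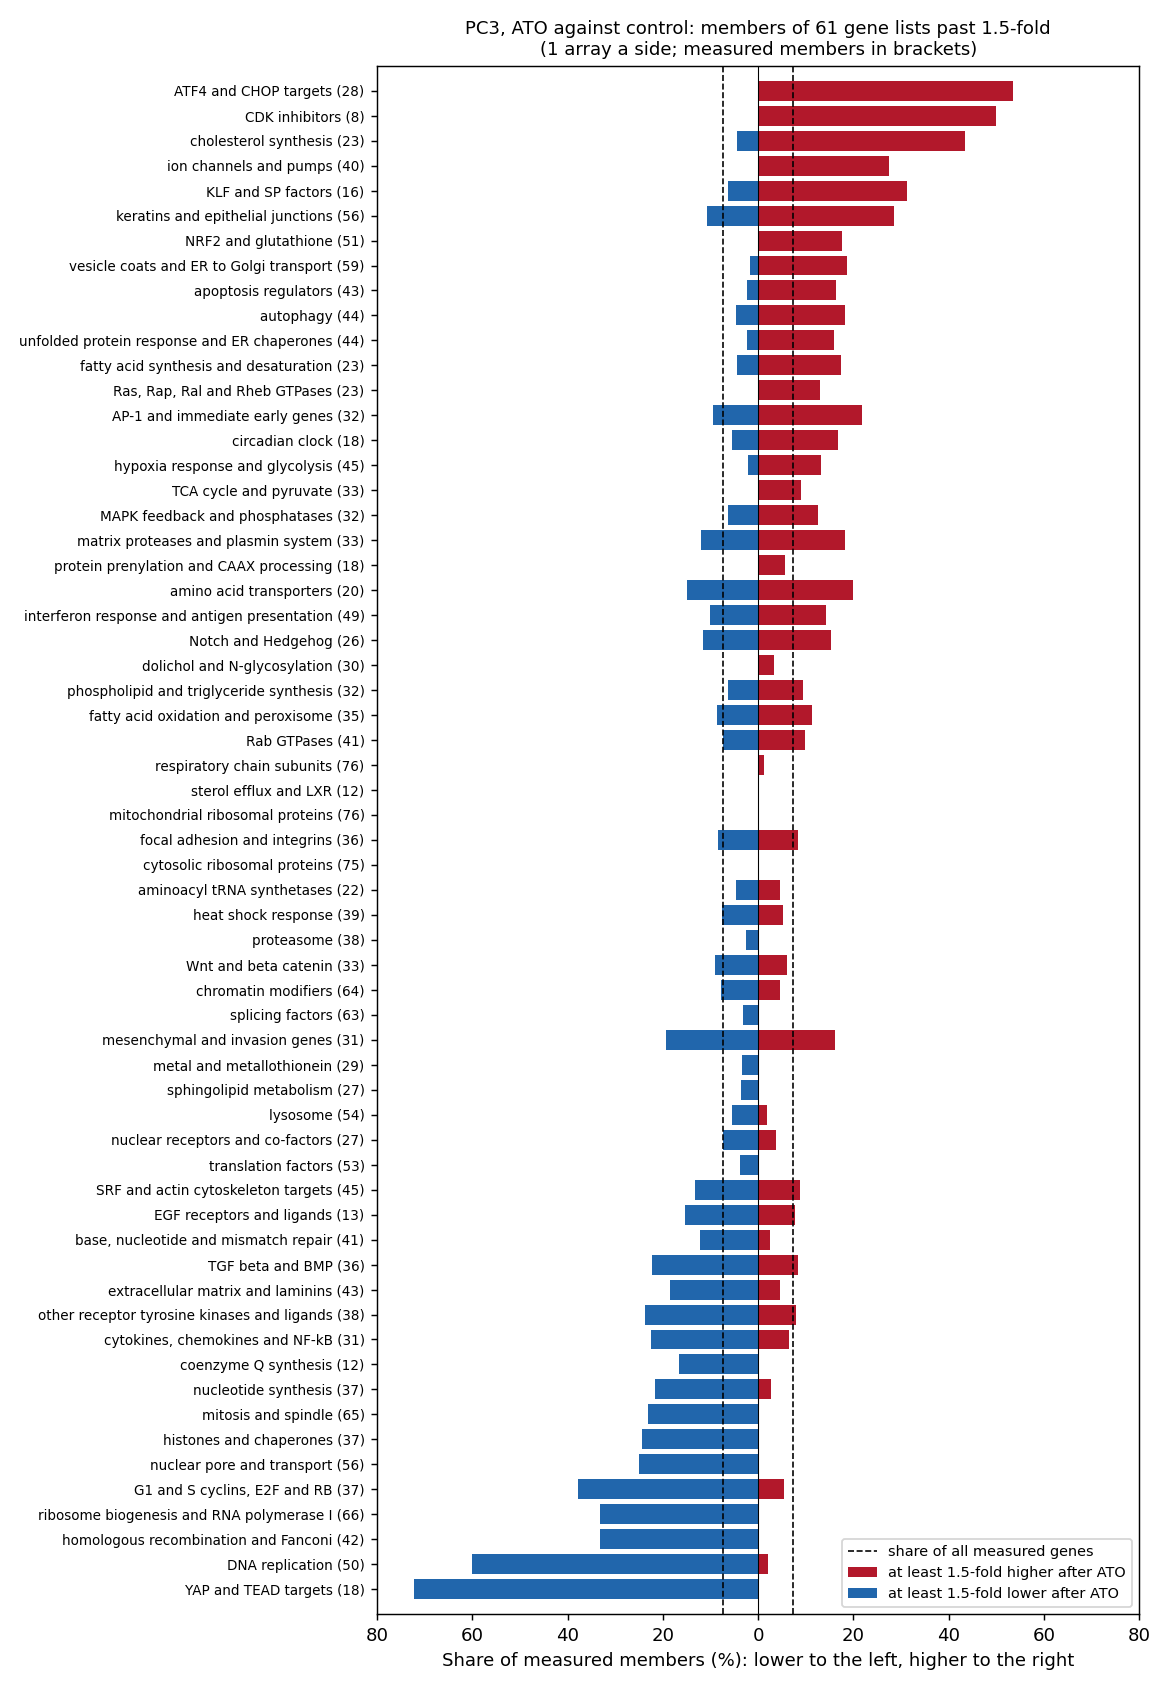
Share of the measured members of 61 gene lists that were at least 1.5-fold higher (bars to the right, percent) or lower (bars to the left, percent) in the PC3 ATO array than in the PC3 control array, with the number measured in brackets. Dashed lines mark the shares over all 12548 genes, 7.4% higher and 7.33% lower, and the YAP and TEAD targets reach 72.2% lower while the ATF4 and CHOP targets reach 53.6% higher.

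Genes of the sterol arm rose. In cholesterol synthesis 10 of 23 genes were higher and 1 was lower (median log2 ratio 0.51). SC4MOL, a C4-sterol oxidase (current name MSMO1), went from 219 to 466 units (2.2-fold) and FDFT1, squalene synthase, from 2394 to 4499 units (1.94-fold). MVD, which makes isopentenyl diphosphate, went from 428 to 758 units (1.83-fold), and SQLE, squalene epoxidase, from 1618 to 2808 units (1.79-fold). HMGCS1, a synthase early in the mevalonate pathway, went from 1647 to 2453 units (1.54-fold), close to the threshold. The member that fell was TMEM97, a binding protein of the sterol transporter NPC1, from 2250.3 to 1360.3 units (1.6-fold). Of the 23 spots, 8 lay in a bright local background, TMEM97 and HMGCS1 among them, and without those 8 genes the median was 0.53.

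Of 17 genes of SREBP control and lipoprotein uptake 5 were higher and 1 was lower. The largest was STARD4, a carrier of cholesterol between membranes, from 79.3 to 215 units (2.81-fold). INSIG1, which retains the SREBP complex in the ER, rose from 913 to 1973 units (2.23-fold). LRP1, an endocytic receptor, rose from 158 to 291 units (1.91-fold) and SREBF2, the gene of SREBP-2 itself, from 427 to 668 units (1.62-fold). SREBF1, its paralog of fatty acid control, was 1325 and 1373 units (log2 ratio 0.10). None of 12 genes of sterol efflux passed 1.5-fold.

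Other lipid genes moved less. Fatty acid synthesis had 4 of 23 genes higher and 1 lower, led by ACSS2, which makes acetyl-CoA from acetate, from 1589.8 to 2858 units (1.86-fold), and LPIN1, a phosphatidate phosphatase, from 1615 to 2538 units (1.62-fold). FADS2 and SCD, desaturases, rose 1.53-fold and 1.51-fold, and ACSL4, which activates long-chain fatty acids, fell from 648 to 399.6 units (1.57-fold). In phospholipid and triglyceride synthesis 3 of 32 were higher (9.38%) and 2 lower (6.25%), near the shares over all genes. PCYT2, the control step of phosphatidylethanolamine synthesis, went from 603 to 1253 units (2.15-fold), and DGAT2, which makes triglyceride, fell from 1255 to 617 units (1.97-fold). PDK4, a brake on pyruvate oxidation, rose from 62.3 to 128 units (2.13-fold), and ACOX3, a peroxisomal oxidase, fell from 604 to 285 units (2.05-fold).

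The non-sterol branches of the pathway are given with their shares. Higher genes were 5.56% in protein prenylation and 3.33% in the dolichol branch, against 7.4% over all genes. Lower genes were 16.7% in coenzyme Q synthesis, against 7.33% over all genes. In protein prenylation 1 of 18 genes was higher, GGPS1, which makes geranylgeranyl diphosphate, from 145 to 220 units (1.56-fold). In the dolichol branch 1 of 30 was higher, DHDDS, which makes the dolichol chain, from 299 to 444 units (1.53-fold). Its second probe gave a log2 ratio of 0.40, under the threshold. In coenzyme Q synthesis 2 of 12 were lower, CABC1 (now COQ8A, a kinase-like protein of the complex), from 623 to 309 units (1.95-fold), and PDSS1, which makes the tail, from 690 to 426 units (1.57-fold). Medians of the prenylation, dolichol and coenzyme Q lists were 0.04, -0.03 and 0.04, and their sign changed with the scaling.

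The promoter of SREBF2 is shown because it was the only one of the 18 cholesterol synthesis and 14 sterol control promoters in the RefSeq table (GRCh38.p14, 250 bases before to 50 after the start) that held the sterol element TCACNCCAC on either strand. This element was found in 1.15% of all 27305 promoters and in 1.14% of those of the measured genes. The CCAAT box of the factor NF-Y was found in 14 of 18 cholesterol synthesis promoters (77.8%), against 37.4% of those of measured genes. The box was not particular to this list, with 79.5% in the unfolded protein response list and 79.4% in the histone list. Over all genes that rose its share was 37.1%, and over those that fell 40.0%. The window is chr22:41832946-41833005 (plus strand), with the element in capitals.
SREBF2: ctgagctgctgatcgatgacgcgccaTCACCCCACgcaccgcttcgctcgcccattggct

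Targets of SRF, the factor of cytoskeletal genes, were mixed. Among 45 targets of SRF 6 were lower and 4 higher, and with the 50th percentile 4 and 9. Outside these counts, ACTA2 and MYH11 were well above background in the control only and at least 2.75-fold and 2.0-fold lower. Both lay on spots in a bright local background and were chosen after their values were seen. ACTG2 and ACTG1, actins, fell from 778 to 245 units (3.07-fold) and from 17089.9 to 8423 units (1.96-fold), and SRF itself fell from 245 to 142 units (1.67-fold). ACTB was 151802 and 121717 units (log2 ratio -0.27). TAGLN, which binds actin, fell from 808 to 362 units (2.16-fold), but its second probe gave -0.40. GSN, gelsolin, rose from 914 to 1989 units (2.25-fold) and ZYX, zyxin, from 2930.5 to 4630.4 units (1.63-fold).

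The YAP and TEAD targets had the largest share of lower genes of the lists. 13 of 18 were lower and none was higher, with a median log2 ratio of -0.99. F3, tissue factor, fell from 640.4 to 77.6 units (7.98-fold). CTGF and CYR61, matricellular proteins used as readouts of YAP, fell from 433 to 66.6 units (6.29-fold) and from 12699 to 2138 units (5.75-fold). TGFB2, a TGF beta ligand, fell from 802 to 176 units (4.41-fold) and IGFBP3, which binds IGF, from 6341 to 2848 units (2.15-fold). ANKRD1, a nuclear target, was well above background in the control only, at 122 against 16.6 units, so at least 2.19-fold lower. Of the 18 spots 9 lay in a bright local background, and without them 8 of 9 genes were lower (median -1.11). In the upper rows of the array alone 4 of 9 were lower (median -0.51).

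Promoters of CTGF and TGFB2 are shown because these targets were among the 4 that fell most and their windows held the TEAD motif GGAATG. The motif was found on either strand in 4 of 14 promoters of the list (28.6%), in 10.5% of those of measured genes and in 14% of all promoters. Over all genes that fell the share was 11.5%, and over those that rose 10.4%. The unrelated motif CACGTG was found in as many promoters of the list (28.6%), against 10.3% of those of measured genes. The CTGF window (gene now named CCN2) is chr6:131951509-131951568 (minus strand) and holds the first of 3 matches, and that of TGFB2 is chr1:218345124-218345183 (plus strand). Capitals mark the motif or its reverse complement.
CTGF: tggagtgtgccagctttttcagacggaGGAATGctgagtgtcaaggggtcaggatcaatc
TGFB2: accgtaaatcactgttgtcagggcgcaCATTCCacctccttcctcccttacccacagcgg

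Of 43 matrix genes 8 were lower and 2 higher, and with the 50th percentile 7 and 6. LOXL4 and LOXL3, which crosslink collagen, fell from 314 to 120.1 units (2.53-fold) and from 353 to 155 units (2.2-fold). THBS1, thrombospondin, fell from 21802 to 9063 units (2.33-fold) and COL12A1, a fibril-associated collagen, from 1295 to 577 units (2.17-fold). LAMB2, a laminin chain of basement membranes, rose from 4474 to 7259 units (1.68-fold). Of 36 focal adhesion genes 3 were higher and 3 lower (8.33% each way), near the shares over all genes. CAV1, the coat of caveolae, fell from 12387 to 5019 units (2.39-fold) and ITGB8, an integrin, from 304 to 161 units (1.82-fold), while LIMS1, an adaptor of integrin-linked kinase, rose from 139 to 289.6 units (2.16-fold) from a spot in a bright local background.

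Proteases moved in both directions, with 6 of 33 higher and 4 lower. MMP1, the interstitial collagenase, rose from 934 to 8214 units (9.09-fold). THBD, thrombomodulin, an anticoagulant receptor, rose from 164 to 555 units (3.49-fold), and TFPI, the inhibitor of tissue factor, from 253 to 485 units (1.98-fold), while F3 fell. MMP28 rose from 357 to 761 units (2.2-fold). The plasminogen activators fell, PLAU from 39664 to 19116 units (2.01-fold) and PLAT from 6198 to 3457 units (1.73-fold), and so did TFPI2, a protease inhibitor, from 5922 to 3390.3 units (1.69-fold).

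Genes of DNA replication fell together. 30 of 50 were lower and 1 was higher (median log2 ratio -0.73), and the count was 23 with the 50th percentile. In RNA of a whole culture, fewer cells in S phase and less RNA per cell cannot be told apart. ORC1L, the large subunit of the origin complex, fell from 509.9 to 172 units (2.86-fold). CDT1, which loads the helicase, fell from 1753 to 756 units (2.24-fold), and MCM2, a helicase subunit, from 1976 to 765 units (2.5-fold). CDC7, the kinase that fires origins, fell from 1196 to 534 units (2.17-fold). POLD4, a small subunit of polymerase delta, rose from 4500.3 to 8813 units (2.02-fold). MCM10 and CLSPN, chosen after their values were seen, were well above background in the control only and at least 3.46-fold and 2.47-fold lower.

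Promoters of replication genes are shown because the E2F motif was shared by many of them. Any of TTTGGCGC, TTTCCCGC and TTTCGCGC was found on either strand in 18 of 43 promoters of the list (41.9%), against 4.8% of those of measured genes and 2.79% of all promoters. Matches on opposite strands can overlap. Over all genes that fell the share was 7.17%, and over those that rose 2.49%. In the homologous recombination list it was 10.8% and in the mitosis list 7.02%, where the CCAAT box was found in 71.9% of promoters. The windows below were chosen after their values were seen, with motifs in capitals. They are chr6:52284883-52284942 (minus strand) for MCM3, chr2:135876562-135876621 (minus strand) for MCM6, chr16:88803728-88803787 (plus strand) for CDT1, chr20:5126648-5126707 (minus strand) for PCNA, chr13:33818068-33818127 (plus strand) for RFC3 and chr11:65261883-65261942 (plus strand) for POLA2. The log2 ratios of these genes were -1.07, -0.82, -1.16, -0.96, -1.02 and -0.96.
MCM3: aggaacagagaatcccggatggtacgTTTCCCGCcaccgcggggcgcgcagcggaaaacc
MCM6: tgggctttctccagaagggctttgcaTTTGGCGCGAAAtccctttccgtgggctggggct
CDT1: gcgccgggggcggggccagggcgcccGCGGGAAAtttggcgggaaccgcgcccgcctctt
PCNA: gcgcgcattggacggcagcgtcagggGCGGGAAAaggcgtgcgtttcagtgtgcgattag
RFC3: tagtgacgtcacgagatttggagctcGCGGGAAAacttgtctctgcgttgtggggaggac
POLA2: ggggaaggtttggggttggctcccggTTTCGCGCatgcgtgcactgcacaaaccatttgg

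Genes that supply and repair DNA followed the same direction. In nucleotide synthesis 8 of 37 were lower and 1 was higher (median -0.46). CTPS, which makes CTP, fell from 3847 to 1577 units (2.36-fold), PPAT, the first step to purines, from 2391 to 1181 units (1.96-fold), and RRM2, a subunit of ribonucleotide reductase, from 2458 to 1283 units (1.85-fold). In that list 15 spots lay in a bright local background, and 3 of the other 22 genes were lower. Of homologous recombination genes 14 of 42 were lower and none higher (median -0.48), among them EXO1, a resecting nuclease, from 1252 to 474 units (2.56-fold), and BLM, a helicase, from 807 to 347 units (2.25-fold). FANCA fell from 178 to 71.2 units (2.41-fold), with -0.40 on a second probe. Of the histone list 9 of 37 were lower and none higher, but with the 50th percentile 5 were lower and 6 higher. It was led by HELLS, a remodeller, from 464 to 136 units (3.29-fold), and NASP, a histone chaperone, from 4257 to 1921 units (2.14-fold). Members of histone gene families can be near-identical in sequence, so their values are uncertain as to the member.

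Chromatin modifiers were called near the background shares. 5 of 64 were lower (7.81%) and 3 higher (4.69%), and with the 50th percentile 3 and 9. UHRF1, which finds newly copied DNA, went from 5720.3 to 2138 units (2.59-fold), and DNMT1, the methyltransferase it brings there, from 1130.5 to 542 units (2.02-fold). EZH2, which writes a repressive histone mark, fell from 2530.2 to 1509 units (1.62-fold). HDAC5, HDAC6 and SIRT7, deacetylases, went the other way, with log2 ratios of 0.88, 0.64 and 0.62. Their local background and second probes are not given here.

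Regulators of G1 and S fell, and inhibitors of cyclin-dependent kinases rose. 14 of 37 regulators were lower and 2 higher (median -0.41). E2F8, an E2F family repressor, fell from 590.4 to 196 units (2.91-fold), CDC25A, which activates CDK2, from 1746 to 658 units (2.57-fold), and CCNE2, cyclin E2, from 2004 to 756 units (2.56-fold), with -1.74 on a second probe. CCNE1 fell from 1251 to 644 units (1.88-fold), CCNA2 from 1803 to 1146 units (1.52-fold) and MYC from 5057 to 2569 units (1.9-fold). CCND1, cyclin D1, was 12817 and 8311 units (log2 ratio -0.58), just under the threshold. Both that rose were MXD1 and MXD4, which compete with MYC for MAX, from 106 to 363 units (3.54-fold) and from 138 to 334 units (2.5-fold).

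Of the 8 CDK inhibitors 4 were higher and none lower. CDKN2B, p15, rose from 53.1 to 269.6 units (5.25-fold) from a signal close to background. CDKN1A, p21, rose from 354 to 853 units (2.49-fold), and CDKN1C, p57, from 1073 to 2311 units (2.23-fold). CDKN2D, p19, rose from 1682 to 2457 units (1.51-fold), at the threshold. CDKN1B, p27, and CDKN2A, p16, had log2 ratios of 0.34 and 0.28, and CDKN3, a phosphatase, and CDKN2C, p18, had -0.25 and -0.47. Mitotic genes also fell. 15 of 65 were lower and none higher (median -0.38), with 4 lower under the 50th percentile and 26 under the spike-in scaling. MKI67, a marker of cycling cells, fell from 645 to 305 units (2.04-fold), TOP2A, which untangles chromosomes, from 1207 to 664 units (1.76-fold), and ANLN, of the cleavage furrow, from 2754 to 1357 units (1.96-fold).

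Ribosome production and ribosomes differed. Of 66 genes of ribosome biogenesis 22 were lower and none higher (median -0.47), with 11 lower under the 50th percentile. POLR1E, a subunit of RNA polymerase I, fell from 290.3 to 93.4 units (3.01-fold), NOLC1, a nucleolar chaperone, from 1575 to 721 units (2.11-fold), and LYAR, a nucleolar protein of growing cells, from 2045 to 1025 units (1.93-fold). The 75 cytosolic ribosomal proteins had a median of 0.04 and the 76 mitochondrial ones -0.13. Of 76 respiratory chain subunits 1 was higher, NDUFA5, from 1757 to 3117 units (1.83-fold), and of 38 proteasome subunits 1 was lower, PSMD2, from 18432 to 11597 units (1.54-fold). Medians of these 4 housekeeping lists lay within 0.138 of 0 and changed sign with the scaling. Of 56 genes of nuclear transport 14 were lower and none higher (median -0.36), with 5 lower under the 50th percentile. They included RCC1, the exchange factor of Ran, from 1996 to 1051 units (1.84-fold), and IPO7, an importin, from 3995 to 2137 units (1.81-fold).

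**Figure D2:**
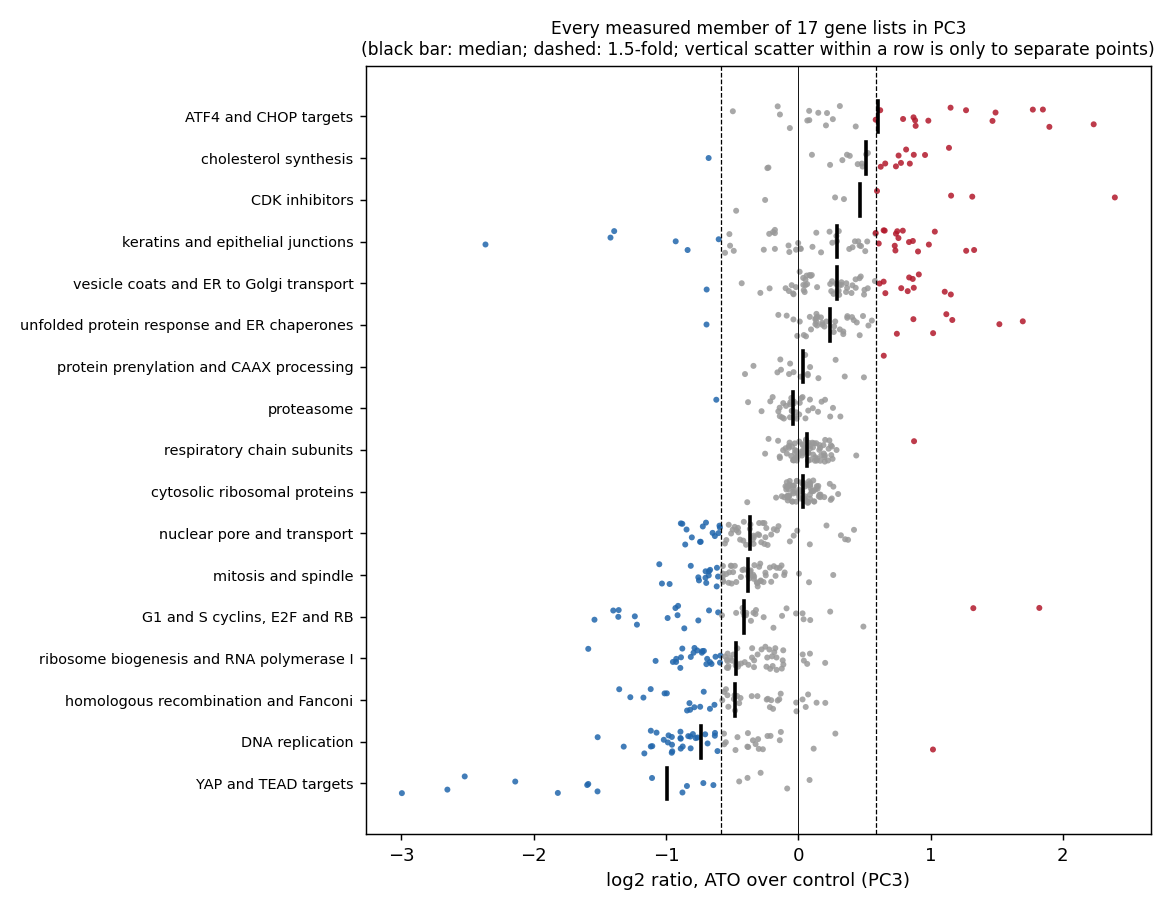
Log2 ratio of ATO over control in PC3 cells for every measured member of 17 gene lists, with 1 point a gene, the median as a black bar and 1.5-fold as dashed lines. The 75 cytosolic ribosomal proteins sit around a median of 0.04, while the DNA replication genes spread around -0.73 and the ATF4 and CHOP targets around 0.60.

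Targets of ATF4 and CHOP, the factors of the integrated stress response, had the largest share of higher genes. 15 of 28 were higher and none lower (median 0.60). DDIT4, an inhibitor of mTORC1, rose from 458 to 2081 units (4.7-fold), DDIT3, which encodes CHOP, from 939 to 3383 units (3.73-fold), and GDF15, a stress cytokine, from 3208 to 11177 units (3.6-fold). CHAC1, which degrades glutathione, rose from 1307 to 4319 units (3.42-fold), with 2.04 on a second probe. SESN2, an inhibitor of mTORC1 under leucine shortage, rose from 192 to 523 units (2.81-fold), and SLC7A11, which imports cystine, from 541 to 1261 units (2.41-fold). ATF4 itself was 11513 and 16701 units (log2 ratio 0.58), just under the threshold. In the upper rows of the array 6 of 14 targets were higher (median 0.48).

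Promoters of CHAC1, ASNS and ATF3 are shown because they were the 3 of the list to hold the element TGATGNAA on either strand. It was found in 3 of 21 promoters (14.3%), against 1.61% of those of measured genes and 3.67% of all promoters. It was also found in 6 of 18 promoters of aminoacyl tRNA synthetases (33.3%), of which 1 of 22 was higher (median -0.04), and in 4 of 16 of amino acid transporters (25%), of which 4 of 20 were higher and 3 lower. ASNS, which makes asparagine, rose from 3126 to 5575 units (1.84-fold), and ATF3, a repressor induced by stress, from 1033 to 1729.8 units (1.73-fold). ASNS was chosen after its values were seen. The windows are chr15:40953236-40953295 (plus strand), chr7:97872443-97872502 (minus strand) and chr1:212565190-212565249 (plus strand), with the element or its reverse complement in capitals.
CHAC1: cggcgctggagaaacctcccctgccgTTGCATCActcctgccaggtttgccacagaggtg
ASNS: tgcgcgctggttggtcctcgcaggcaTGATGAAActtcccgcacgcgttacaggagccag
ATF3: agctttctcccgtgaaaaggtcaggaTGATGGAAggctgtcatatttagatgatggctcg

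The unfolded protein response of the ER rose in part. 7 of 44 genes were higher and 1 lower (median 0.24). HERPUD1, of ER-associated degradation, rose from 2632 to 8251 units (3.24-fold), and EIF2AK3, the ER sensor PERK, from 77.2 to 214 units (2.87-fold). HSPA5, the chaperone BiP, rose from 879 to 1905 units (2.24-fold) and DNAJB9, its co-chaperone, from 484 to 1016 units (2.17-fold). SSR3, of the translocon, fell from 1239 to 741 units (1.62-fold). In the transport path out of the ER 11 of 59 genes were higher and 1 lower (median 0.29), with 21 higher under the 50th percentile. SEC24D and SEC24A, cargo adaptors of the COPII coat, rose from 210.1 to 452 units (2.22-fold) and from 373 to 678 units (1.88-fold). KDELR3, which returns chaperones to the ER, rose from 1448 to 3017 units (2.15-fold), and ARFGAP3, of the Golgi, from 1614 to 2860.2 units (1.83-fold). CLTB, a clathrin light chain, fell from 2267 to 1357 units (1.62-fold).

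Of 51 genes of the NRF2 and glutathione list 9 were higher and none lower (median 0.20), with 14 higher under the 50th percentile. AKR1C1, a reductase of ketosteroids and lipid aldehydes, rose from 107 to 469 units (4.51-fold), with 2.37 on a second probe. AKR1C3 rose from 742 to 2022 units (2.82-fold) and AKR1B10 from 248 to 691 units (2.88-fold). GPX2, which reduces hydroperoxides, rose from 267 to 775 units (3.0-fold), and HMOX1, heme oxygenase, from 423 to 864 units (2.11-fold). The AKR1C enzymes are near-identical in sequence, so their values are uncertain as to the member. Genes of hypoxia and glycolysis had 6 of 45 higher and 1 lower, led by NDRG1, a differentiation and stress gene, from 7212 to 32645 units (4.68-fold), followed by VEGFA, the vascular growth factor, from 319.7 to 572 units (1.85-fold).

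Of 43 apoptosis regulators 7 were higher and 1 lower. BBC3, the BH3 protein PUMA, rose from 94.5 to 422 units (4.62-fold), PMAIP1, the BH3 protein NOXA, from 258 to 468 units (1.87-fold), CASP9, the initiator caspase, from 494 to 823 units (1.72-fold), and BIRC3, an inhibitor of apoptosis, fell from 458 to 243 units (1.83-fold). MCL1 and BCL2L1, which protect mitochondria, had log2 ratios of -0.10 and -0.55. The brightest probe of BCL2 was not well above background on either array.

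In the autophagy list 8 of 44 genes were higher and 2 lower, with 4 higher under the spike-in scaling. WIPI1, which marks nascent autophagosomes, rose from 949.5 to 2915 units (3.17-fold), and ULK1, the initiating kinase, from 1592 to 3951 units (2.57-fold). MAP1LC3B, which encodes LC3B, rose from 2116 to 3096 units (1.51-fold), at the threshold, with 0.62 on a second probe. SQSTM1, the receptor p62, was 6367 and 9088 units (log2 ratio 0.56). ATG4C, a protease for LC3, fell from 569.6 to 361 units (1.53-fold).

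**Figure D3:**
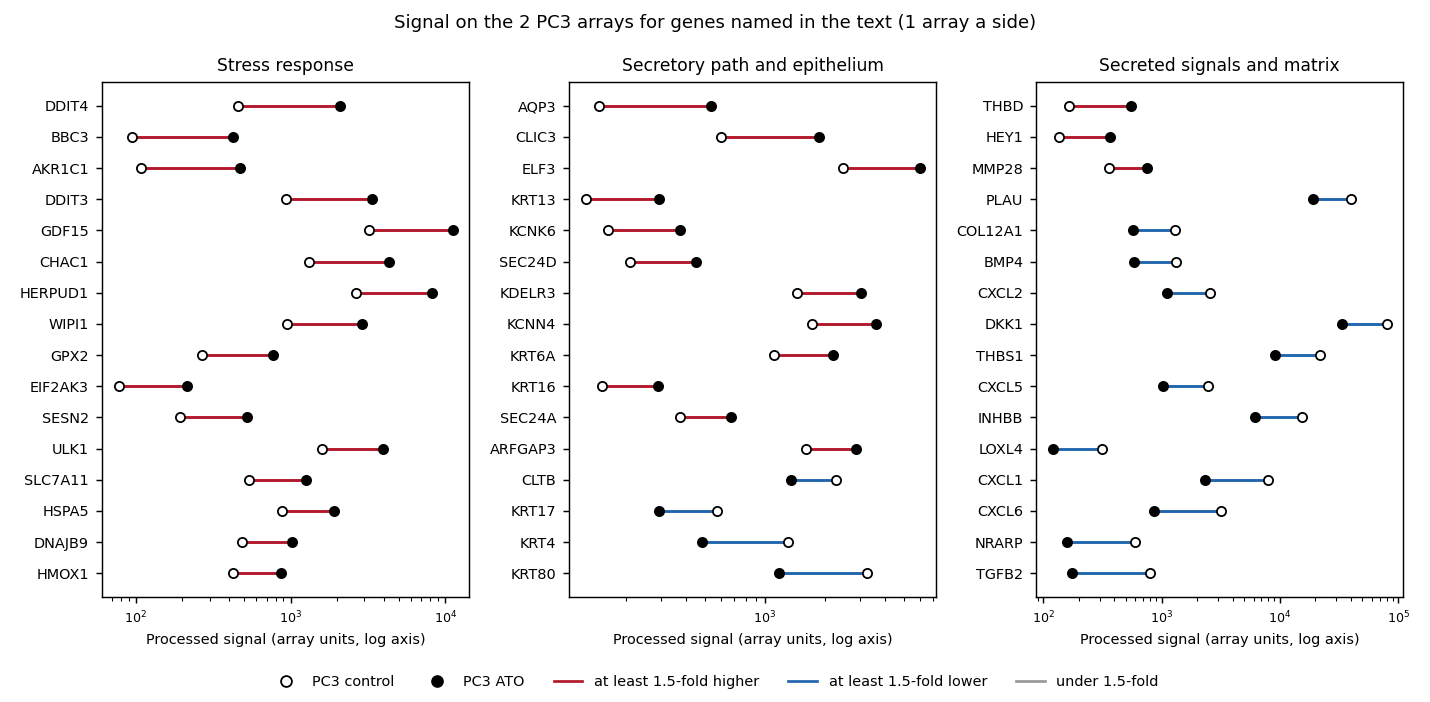
Processed signal (array units, log axis) on the PC3 control array (open circles) and the PC3 ATO array (filled circles) for 48 genes named in the text, in 3 panels. The genes were picked among those past 1.5-fold, and the 16 stress genes among those that rose, with DDIT4 going from 458 to 2081 units, and the 4 chemokines are lower in ATO cells, with CXCL1 going from 7974 to 2338.

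Transcription factors that answer to growth and stress signals rose in part. Of 16 KLF and SP factors 5 were higher and 1 lower (median 0.22), with 3 higher under the spike-in scaling. KLF2, a factor of quiescent cells, rose from 235 to 5821 units (25.6-fold), KLF6 from 2756 to 8308 units (3.12-fold) and KLF13 from 1898 to 4464 units (2.43-fold). KLF4, of differentiating epithelium, and KLF12, a repressor, rose 1.57-fold and 1.5-fold, close to the threshold. SP4 fell from 270.3 to 151 units (1.73-fold). The other 10 had log2 ratios between -0.30 (KLF10) and 0.39 (KLF5), with SP1 at 0.27 and SP3 at 0.01. KLF7 was well above background after ATO only, at 46.8 against 186 units, so at least 3.7-fold higher.

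**Figure D4:**
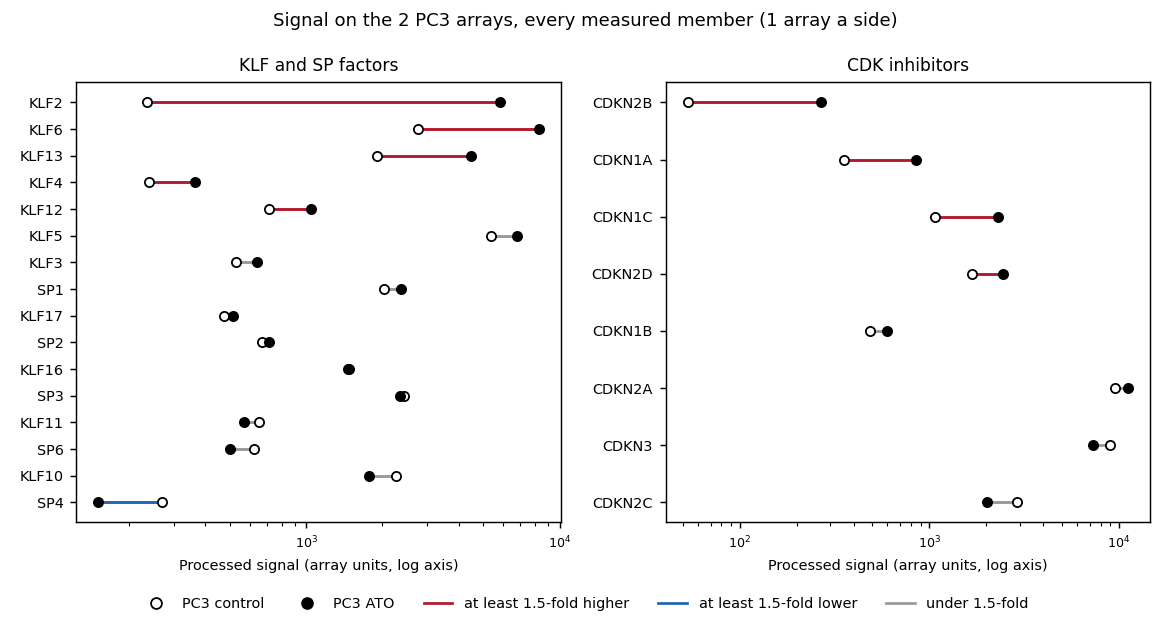
Processed signal (array units, log axis) of every measured member of the KLF and SP factors and the CDK inhibitors on the PC3 control array (open circles) and the PC3 ATO array (filled circles). KLF2 goes from 235 to 5821 units and CDKN2B from 53.1 to 269.6. Levels of different genes come from different probes and cannot be ranked against each other.

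Of 32 AP-1 and immediate early genes 7 were higher and 3 lower. JUND and JUN, subunits of AP-1, rose from 250.3 to 749 units (3.09-fold) and from 349.7 to 938 units (2.77-fold), while FOSL1, another subunit, fell from 8057 to 5129.6 units (1.52-fold), at the threshold. FOS was not well above background on either array. ZFP36, which degrades cytokine transcripts, rose from 1433 to 2881 units (2.08-fold). Feedback genes of the MAPK path were mixed, with ERRFI1, an inhibitor of EGFR, from 3343 to 6625 units (2.05-fold), SPRY2, an inhibitor of Ras signalling, from 1875 to 3219.6 units (1.78-fold), and MAP2K6, a p38 kinase kinase, falling from 522 to 203 units (2.49-fold). EGFR itself was 532 and 353 units (log2 ratio -0.54).

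Epithelial genes were the list with the most higher members by count, but not by share. 16 of 56 keratin and junction genes were higher (28.6%) and 6 lower (median 0.29), with 25 higher under the 50th percentile. Of the 56 spots 17 lay in a bright local background. ELF3, an epithelial factor, rose from 2461 to 5980.3 units (2.51-fold) from a spot in a bright local background. Keratins went both ways. KRT13, KRT6A and KRT16 rose from 126 to 293 units (2.41-fold), from 1112 to 2198 units (2.04-fold) and from 151 to 289.9 units (1.98-fold). Other keratins fell, KRT80 from 3245 to 1173 units (2.68-fold), KRT4 from 1309 to 482 units (2.62-fold) and KRT17 from 577 to 293 units (1.9-fold). KRT6A, KRT16 and KRT17 have close relatives, which leaves these values uncertain as to the member. CLDN11, a claudin, fell from 1471 to 276 units (5.15-fold). CDH1, E-cadherin, was 5576 and 6585 units (log2 ratio 0.29), while CDH2, N-cadherin, fell from 4125 to 1829 units (2.18-fold), with -0.96 on a second probe. The mesenchymal and invasion list went both ways, with 5 of 31 genes higher (16.1%) and 6 lower (19.4%), and a median of 0.12. VIM, vimentin, had a log2 ratio of 0.17. SNAI1, a repressor of CDH1, rose from 179 to 336 units (1.94-fold).

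Of 40 ion channels and pumps 11 were higher and none lower (median 0.19), with 7 higher under the spike-in scaling and 6 with another background correction. Outside these counts, SLC8A1 and AQP1 were well above background in the control only, on spots in a bright local background. They were at least 2.83-fold and 1.69-fold lower and were chosen after their values were seen. AQP3, a channel for water and glycerol, rose from 146 to 533 units (3.77-fold), with 1.72 on a second probe. CLIC3, a chloride channel protein, rose from 604 to 1858 units (3.18-fold), and KCNK6 and KCNN4, potassium channels, from 163 to 375 units (2.38-fold) and from 1729 to 3599.9 units (2.15-fold). Amino acid transporters went both ways. SLC1A3, a glutamate transporter, fell from 325 to 81.4 units (3.87-fold) and SLC7A2, of cationic amino acids, from 254 to 97.2 units (2.52-fold), whereas SLC6A9, of glycine, rose from 805 to 1363 units (1.75-fold).

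Of 31 cytokine and NF-kB genes 7 were lower and 2 higher. The chemokines CXCL6, CXCL1, CXCL5 and CXCL2 fell from 3164 to 862 units (3.55-fold), from 7974 to 2338 units (3.3-fold), from 2488 to 1025 units (2.35-fold) and from 2558 to 1103 units (2.24-fold). CXCL1 and CXCL2 resemble each other in sequence, which leaves each value uncertain as to the member. IL8, another chemokine, chosen after its values were seen, was well above background in the control only, at 70.4 against 29.4 units, with a bound of 1.27-fold lower. The list's median, -0.13, changed sign under the 50th percentile. IL1RN, the antagonist of interleukin 1, rose from 1309.7 to 2037 units (1.61-fold). In all 7 members were well above background on 1 array only, IL8 among them, and so was PTGS2, cyclooxygenase 2, which was chosen after its values were seen and was at least 2.86-fold lower.

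Of 36 genes of TGF beta and BMP 8 were lower and 3 higher (median -0.22), and with the 50th percentile 7 and 6. Next to TGFB2, INHBB, an activin subunit, fell from 15512 to 6169 units (2.43-fold), LTBP2, which binds matrix fibrils, from 352 to 134 units (2.54-fold), and BMP4 from 1323 to 589.7 units (2.17-fold). DKK1, a secreted inhibitor of Wnt, fell from 80245 to 33765 units (2.3-fold) on a spot in a bright local background. Over the Wnt list 3 of 33 genes were lower (9.09%) and 2 higher (6.06%), near the shares over all genes. Another 6 members, outside these counts, were well above background in the control only. Their bounds ran from 0.894-fold (TCF7L1) to 3.59-fold lower (WNT3A, on a spot in a bright local background). WNT10B and WNT5B were at least 3.05-fold and 2.8-fold lower. These 4 genes were chosen after their values were seen. Of the growth factor receptors and ligands other than the EGF family 9 of 38 were lower and 3 higher, but with the 50th percentile 4 were lower and 8 higher. KITLG, the ligand of KIT, fell from 683 to 339 units (1.95-fold) and FGFR4, an FGF receptor, from 171 to 85.4 units (1.94-fold), while PDGFA rose from 538 to 889.6 units (1.71-fold).

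The Notch and Hedgehog list was split, with 4 of 26 higher and 3 lower. HEY1, a Notch target, rose from 135 to 367 units (2.82-fold), and NRARP, another target that damps Notch, fell from 599 to 159.9 units (3.62-fold). LFNG, which glycosylates Notch, rose from 555 to 1527 units (2.85-fold), but its second probe gave 0.47. SMO, the Hedgehog transducer, fell from 1215 to 576 units (2.04-fold) and GLI2, its factor, from 127 to 59.6 units (2.07-fold). Interferon genes were also split. ISG20, a nuclease, rose from 1020.4 to 3564 units (3.61-fold) and OASL from 389.6 to 758 units (2.01-fold), while IFIT1, which binds viral RNA, fell from 3536 to 1823 units (1.88-fold) and IFIT2 from 2391 to 1314 units (1.76-fold), and over the list 7 of 49 were higher and 5 lower. OAS and IFIT genes have close relatives, so their values are uncertain as to the member.

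Genes with at least 2 probes past 1.5-fold the same way rest on more than 1 spot. There were 75 such genes higher and 94 lower among the 2419 with at least 2 measured probes. Of the 15 highest, LCK, a Src family kinase of lymphocytes, rose from 149 to 575 units (4.0-fold), PNRC1, a co-activator of nuclear receptors, from 1027 to 3062 units (3.08-fold), and LYPD3, a surface protein of keratinocytes, from 384 to 1120.5 units (3.02-fold). CYP1B1, a steroid hydroxylase, rose from 1785 to 4057 units (2.35-fold) and ALDH3A1, an aldehyde dehydrogenase, from 121 to 296 units (2.53-fold). PECAM1, a junction protein of endothelium and platelets, rose from 147 to 389 units (2.73-fold). Of the other endothelial markers, VWF was not well above background on either array. CDH5 was well above background in the control only, at 235 against 45.9 units. It was at least 4.22-fold lower, on a spot in a bright local background. Of the 15 lowest, PDE1C, a phosphodiesterase, fell from 1458 to 355 units (3.97-fold), CDCA7, a partner of HELLS, from 2162 to 529 units (3.95-fold), and TGM2, which crosslinks proteins, from 5762 to 1677 units (3.32-fold). PHACTR3, which binds actin and protein phosphatase 1, fell from 1374 to 432 units (3.07-fold), and SYNE1, which joins the nucleus to actin, from 389 to 139.9 units (2.69-fold).

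Genes well above background on 1 PC3 array only were kept apart, since they have a bound and no ratio. Of 374 such genes on the ATO array 220 (58.8%) had a bound of at least 1.5-fold, and of 952 on the control array 503 (52.8%). Their spots were not spread as those of the measured genes. Of the 503 lower ones 84.5% were printed in the lower rows and 72% in a bright local background, against 49.3% and 22% of the 12548 measured genes. Of the 220 higher ones 62.3% lay in a bright local background. Among list members, 17 were higher and 38 lower by such bounds, 7 and 23 of them in a bright local background. MMP10, stromelysin 2, was the largest bound among higher genes, at 64.8 against 606 units and at least 9.68-fold, on a spot of that kind, and was chosen after its values were seen.

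The same probes were read in LNCaP cells, another prostate cancer line under the same exposure, with 1 array a side. Of the 10997 genes measured in both lines 1.28% were at least 1.5-fold higher and 1.04% lower in LNCaP. The PC3 shares given above, 7.4% and 7.33%, are over the larger set of 12548 genes. Probes were chosen, and bright local background was judged, on the PC3 arrays. With single arrays the difference between lines was not tested. For cholesterol synthesis the median log2 ratio over shared members was 0.50 in PC3 and 0.71 in LNCaP, where 14 of 22 were higher. HMGCS1 had 0.62 in PC3 and 1.86 in LNCaP. For ATF4 and CHOP targets the medians were 0.60 and 0.26, and for DNA replication -0.70 and -0.29. For the 10 YAP targets measured in both they were -0.99 and 0.15, with CYR61 at -2.52 and 0.02. KLF2 had 4.68 and 0.21, CDKN1A 1.31 and 0.03, and NDRG1 2.23 and 0.01.

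**Figure D5:**
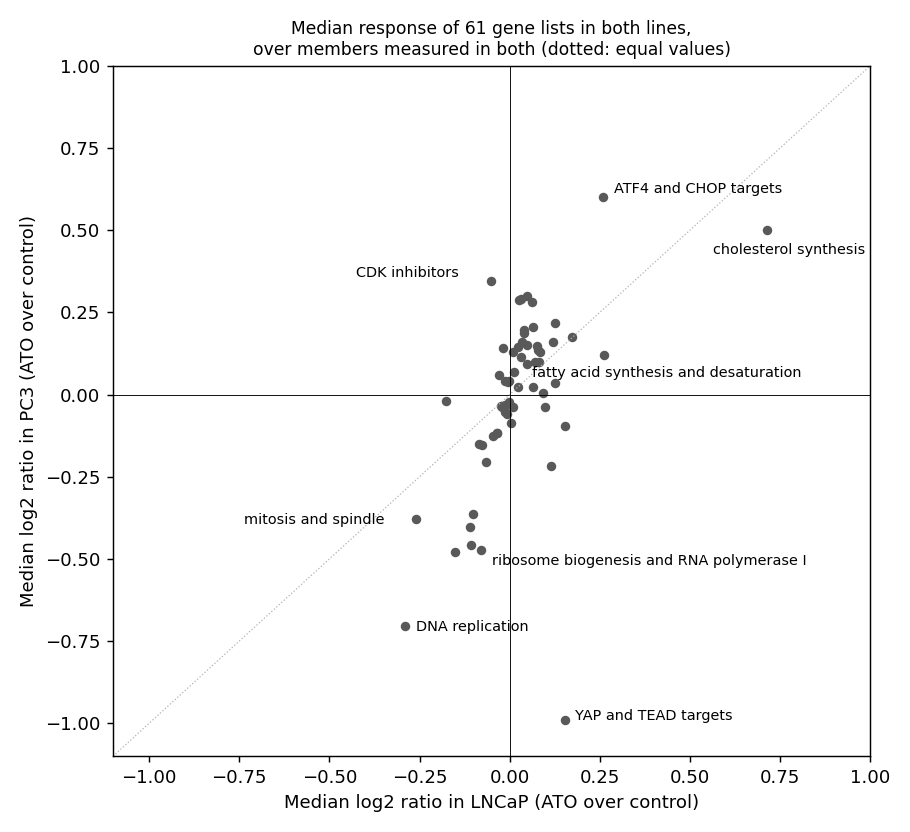
Median log2 ratio of ATO over control in PC3 (vertical axis) against LNCaP (horizontal axis) for 61 gene lists, over the members measured in both lines. Cholesterol synthesis lies at 0.50 in PC3 and 0.71 in LNCaP, and the YAP and TEAD targets at -0.99 and 0.15.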

How the data were processed

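The response was measured on Agilent Human v2 4x44K arrays, of which 2 are PC3 and 2 LNCaP. The deposited scanner files hold the spot intensity, from which the authors' Feature Extraction (version 9.5.3.1 per the file headers) had already subtracted a fitted background. Deposited calls per spot, coded as whole numbers (other), flag outliers and spots well above background. The deposited value table holds a ratio, each intensity divided by its array's 75th percentile. Arrays have no read depth, and precision is limited by having 1 array a group.

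Here outlier spots were left out, log2 intensities were averaged per probe, and the 75th percentile over probes was subtracted. A probe was taken as well above background if over 50% of its spots were, and each gene took its brightest such probe. Alternatives (other scalings, normexp with an offset of 50 and limma 3.58.1 under R 4.3.3, filters, probe rules, array position and the deposited table) were run in Python 3.11.15. The code was checked on a simulated pair of arrays (200 of 200 genes changed 2-fold were recovered among 5000, with 0 others called). That pair had small spot noise only, every spot well above background and no spread between cultures. It checks the code and gives no error rate for the real calls. Probe positions are those of the hg18 build in the files. Of 12548 measured names, 11364 matched a RefSeq symbol. The 70 lists, 3 of them of cell markers, and all rules were chosen with earlier results of these data known. Genes named were the 15 highest and 15 lowest with at least 2 probes past 1.5-fold the same way, up to 4 per list and direction, all members of the gene families set out for it, marker genes, and a fixed set of known response genes. Any other is said to be chosen after its values were seen. Some members and lists are not reported here. No p-value or set test was computed.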

Additional observations from a re-analysis of the deposited data

Results flagged for a closer look

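ACOX3 and ANKRD37 were the named genes that passed 1.5-fold in opposite directions in the lines, with 1 array a side and no test of the difference. ACOX3 had a log2 ratio of -1.04 in PC3 and 0.64 in LNCaP. ANKRD37, a hypoxia gene, had 0.81 in PC3 and -0.95 in LNCaP. For each gene the PC3 spot lay in a bright local background and neither gene had a second measured probe. No list median did so.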

How the results depend on the processing

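Counts of higher and lower genes, 928 and 920, were 1865 and 501 with the 50th percentile, 2250 and 2764 with no filter on dim probes, 532 and 438 in the upper rows alone, where fewer genes were counted, and 234 and 213 at 2-fold. Under the other alternatives both counts stayed within 1.5 times the values given. The 4 list medians past 1.5-fold kept their sign in every setting tried. They include that of the blood, endothelial and fibroblast markers, with only 3 measured genes. Size was less stable than sign, since 3 of 70 list medians crossed 1.5-fold with the 50th percentile and 2 with the spike-in scaling. Of 376 named genes 1 past 1.5-fold changed sign, ESRRA, an orphan receptor, at -0.72 on the brightest probe and 0.081 in the upper rows, where only its second probe lies. The cause was not tested. The 50th percentile raised every ratio by 0.195, which took 44 named genes across 1.5-fold, the spike-in scaling 40 and normexp 67. No paired analysis was possible because each group had 1 array. For the same reason no array could be left out, and dim signals near background limit the bounds.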
